A study of Homo sapiens with 8 samples.

Results

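The interleukin 1 family was followed through 10 genes in HaCaT cells, a spontaneously immortalised line of human keratinocytes, by RNA sequencing. The genes are the ligands IL1A, IL1B, IL18, IL33 and IL36G, the antagonists IL1RN and IL36RN, and the receptors IL1R1, IL1R2 and IL1RAP. They were taken by symbol from tables of 24252 genes; each symbol was found, and 8 of the 10 genes were abundant enough to be tested. The 8 libraries were 4 labelled OGD-R and 4 labelled Control, all from HaCaT cells with no other treatment named. OGD-R commonly stands for oxygen and glucose deprivation followed by their return. The labels do not spell it out, and how long the cells were deprived and then restored is not stated in any source used here. The series set out to find central genes for complex regional pain syndrome. The labels do not say whether the libraries came from separate cultures. A p-value here therefore sets the difference between groups only against the spread among these libraries within their groups. That spread may be technical in origin.

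Interleukin 1 alpha and interleukin 1 beta both bind the receptor encoded by IL1R1, which then recruits the accessory protein encoded by IL1RAP and signals through MYD88 and IRAK kinases to NF-kB. The family has its own brakes: IL1RN encodes an antagonist that occupies the receptor without signalling, and IL1R2 encodes a decoy receptor that binds ligand without signalling. Interleukin 36 gamma and its antagonist IL36RN form a parallel pair at another receptor that shares IL1RAP, and interleukin 18 and interleukin 33 use further relatives of the receptor. Keratinocytes are known for storing interleukin 1 alpha and interleukin 18 precursors and for releasing them on injury.

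Values are FPKM, fragments scaled by gene length and by library total, so levels can be compared between genes. The deposited tables do not name this unit; it was read from the spacing of low values. The summed FPKM of a library lay between 428984 and 475385, and 17188 to 18170 genes were above 0. A single fragment on a gene of 2000 bases was worth an estimated 0.02 to 0.0296 FPKM. The Control libraries did not form 1 group. Across all tested genes, Pearson's r of log2(FPKM + 1) was 0.992 to 0.993 among the OGD-R libraries, 0.992 between Controls 1 and 2, and 0.991 between Controls 3 and 4. Between Controls 1 and 2 and Controls 3 and 4 it was 0.874 to 0.881, lower than the 0.94 to 0.947 between the OGD-R libraries and Controls 1 and 2. The labels name no batch. Results are therefore given with all 4 Controls and also against each pair of Controls, and these comparisons share the OGD-R libraries. The pairs were formed after the split was seen, and each holds 2 Controls. A p-value against a pair leaves out the spread between the pairs and is given as a description.

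The stretches upstream of IL1A, IL1B and IL1R2 are shown because these were the 3 family genes whose level passed the test against all Controls. Each is the 250 bases before a RefSeq transcript start on GRCh38.p14, written 5′ to 3′ on the gene's strand. They lie at chr2:112784494-112784743 (minus strand) for IL1A, chr2:112836780-112837029 (minus strand) for IL1B and chr2:101991710-101991959 (plus strand) for IL1R2. IL1A and IL1R2 each have another recorded start, which is not shown. Capitals mark letters of 4 motifs searched on both strands.
IL1A: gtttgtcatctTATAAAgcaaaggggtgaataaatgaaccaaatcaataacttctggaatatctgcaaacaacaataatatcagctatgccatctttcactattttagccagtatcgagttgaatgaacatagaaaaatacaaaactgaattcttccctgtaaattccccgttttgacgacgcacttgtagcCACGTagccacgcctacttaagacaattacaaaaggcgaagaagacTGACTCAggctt
IL1B: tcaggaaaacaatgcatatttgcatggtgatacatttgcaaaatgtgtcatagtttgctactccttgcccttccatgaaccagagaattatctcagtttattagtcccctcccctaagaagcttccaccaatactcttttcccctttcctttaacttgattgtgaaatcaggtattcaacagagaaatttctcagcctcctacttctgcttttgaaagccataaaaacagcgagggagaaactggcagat
IL1R2: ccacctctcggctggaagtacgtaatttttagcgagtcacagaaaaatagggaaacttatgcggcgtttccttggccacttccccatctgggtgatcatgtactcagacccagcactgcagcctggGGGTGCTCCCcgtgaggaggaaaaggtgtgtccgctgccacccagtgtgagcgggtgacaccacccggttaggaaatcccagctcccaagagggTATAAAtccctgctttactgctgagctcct

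The motifs were the NF-kB letters, GGGA and CC with any 4 bases between them, the AP-1 letters TGANTCA, the TATA box letters TATAAA and the hypoxia response core ACGTG. Of 27305 promoter windows of the same length, these letters stood in 22.1%, 6.6%, 11.1% and 18.7%, in that order. Upstream of IL1A the AP-1 letters stood 12 to 6 bases before the start, the hypoxia response core on the other strand 58 to 54 bases before it, and the TATA letters 239 to 234 bases before it. The window before the other start of IL1A, at 112784400, held the AP-1 letters at 105 to 99 and at 55 to 49 bases and the hypoxia response core at 151 to 147 bases before that start, and no TATA letters. The window of IL1R2 held the NF-kB letters on the other strand 124 to 115 bases before the start and TATA letters 30 to 25 bases before it. The window before the other start of IL1R2, at 101998961, held none of the 4 motifs. The window of IL1B held none of the 4, which says only that these letters are not in it. A match describes the letters and not a bound site.

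Against all 4 Controls, IL1A, IL1B and IL1R2 were lower in the OGD-R libraries, 0 family genes were higher, and 5 did not pass the test (limma on log2(FPKM + 1), Benjamini-Hochberg adjusted over 11740 genes, threshold 0.05). Over all tested genes 9.69% were called lower (1138 genes) and 10.2% higher (1202 genes). With libraries scaled without mitochondrial genes this split was 871 lower and 1600 higher, and the same 3 family genes were called. The median log2 fold change was -0.77 over the 8 tested family genes and 0.018 over all tested genes. IL1R2 and IL36G reached the filter of a mean of 1 FPKM only through Control libraries, so the count and the median describe the tested genes and do not stand for the family. In 3 of the 8 tested genes every OGD-R library lay below every Control, against 14.8% of all tested genes. RNA from a whole culture does not separate fewer expressing cells from less RNA per cell.

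The other 5 tested genes changed their picture with the Controls used. Against Controls 3 and 4 alone, all 8 tested genes were called lower in OGD-R and 0 higher, beside 28.4% and 39.2% of all genes. In all 8 the OGD-R libraries lay wholly below both of those Controls, as in 31.5% of all genes, and in 7, all but IL1R2, Controls 3 and 4 lay above every other library, as in 23.6% of all genes. Against Controls 1 and 2 alone, IL1A, IL1B and IL1R2 were lower (32.4% of all genes), IL1RN, IL18 and IL1R1 were higher (22.8%), and IL36G and IL1RAP did not pass. The medians of the 8 tested genes were -0.01 against Controls 1 and 2 and -1.14 against Controls 3 and 4, beside -0.055 and 0.093 for all genes. Calls in opposite directions against the pairs were made for 3 of the 8 and 15.2% of all tested genes, and calls lower against both pairs for 3 of the 8 and 11.9%. IL36G reached the filter only through Controls 3 and 4, where it had 11.6 and 9.44 FPKM, and IL1R2 only through Control. The counts, positions and medians against each pair carry that choice and are given as a description.

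**Figure D1:**
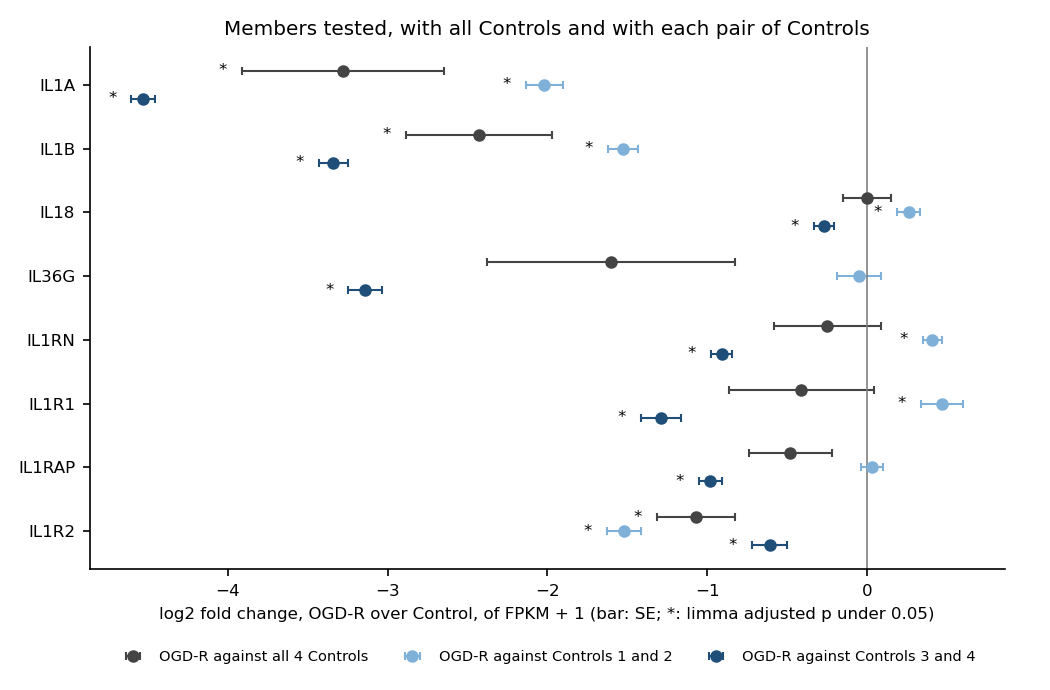
Log2 fold change of FPKM + 1, OGD-R over Control, for the 8 tested family genes, against all 4 Controls, Controls 1 and 2 and Controls 3 and 4; bars are standard errors of the limma fit. IL1A, IL1B and IL1R2 lie below 0 in all 3 comparisons, whereas IL1RN, IL18 and IL1R1 lie above 0 against Controls 1 and 2 and below 0 against Controls 3 and 4.

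IL1A encodes interleukin 1 alpha, an alarm ligand that is active in its precursor form. The gene (ENSG00000115008) lies on chromosome 2 at 112773915 to 112784590, minus strand, on GRCh38. Its level was 2.45, 2.63, 2.47 and 2.82 FPKM in OGD-R libraries 1 to 4, against 11.6, 15.7, 83.9 and 80.3 FPKM in Controls 1 to 4. Every OGD-R library lay below every Control, and Controls 3 and 4 stood far above Controls 1 and 2. The means were 2.59 ± 0.173 FPKM in OGD-R and 47.9 ± 39.6 FPKM in Control (SD, n = 4 each), 18.5-fold lower in OGD-R. IL1A fell by 3.28 in log2(FPKM + 1) (SE 0.631, limma adjusted p = 0.00963). Against Controls 1 and 2 the log2 fold change was -2.02 and the mean 5.28-fold lower (limma adjusted p = 1.61e-06). Against Controls 3 and 4 it was -4.53 and the mean 31.7-fold lower (limma adjusted p = 1.81e-09). The size of the fall therefore depended on the Controls, whose own pairs differed 6.01-fold, while its direction and call held in both comparisons. An estimated 102 to 124 fragments lay behind each OGD-R value and 615 to 3880 behind each Control value.

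IL1B encodes interleukin 1 beta, which needs cleavage by caspase 1 to become active. The gene (ENSG00000125538) lies beside IL1A at 112829751 to 112836903 on the minus strand of chromosome 2. OGD-R libraries 1 to 4 had 5.37, 5.71, 6.18 and 6.91 FPKM, against 19.3, 19.2, 71.0 and 69.4 FPKM in Controls 1 to 4. The groups did not overlap, and the Controls again fell into a lower and a higher pair. The means were 6.04 ± 0.669 FPKM in OGD-R and 44.7 ± 29.4 FPKM in Control (SD, n = 4 each), 7.4-fold lower in OGD-R. IL1B fell by 2.43 in log2(FPKM + 1) (SE 0.458, limma adjusted p = 0.00867). The log2 fold change was -1.53 against Controls 1 and 2 (limma adjusted p = 2.33e-06) and -3.34 against Controls 3 and 4 (limma adjusted p = 5.18e-09). These correspond to means 3.18-fold and 11.6-fold lower in OGD-R. With 1 library left out, the limma adjusted p ran from 0.00433 to 0.0345 for IL1A and from 0.00603 to 0.0318 for IL1B. Over all 18 other settings and left-out libraries the highest values were the same, so both calls held in each. These settings include the fits against each pair of Controls. The fit against Controls 3 and 4 gave the lowest values, 1.81e-09 and 5.18e-09, and leaves out the spread between the pairs.

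**Figure D2:**
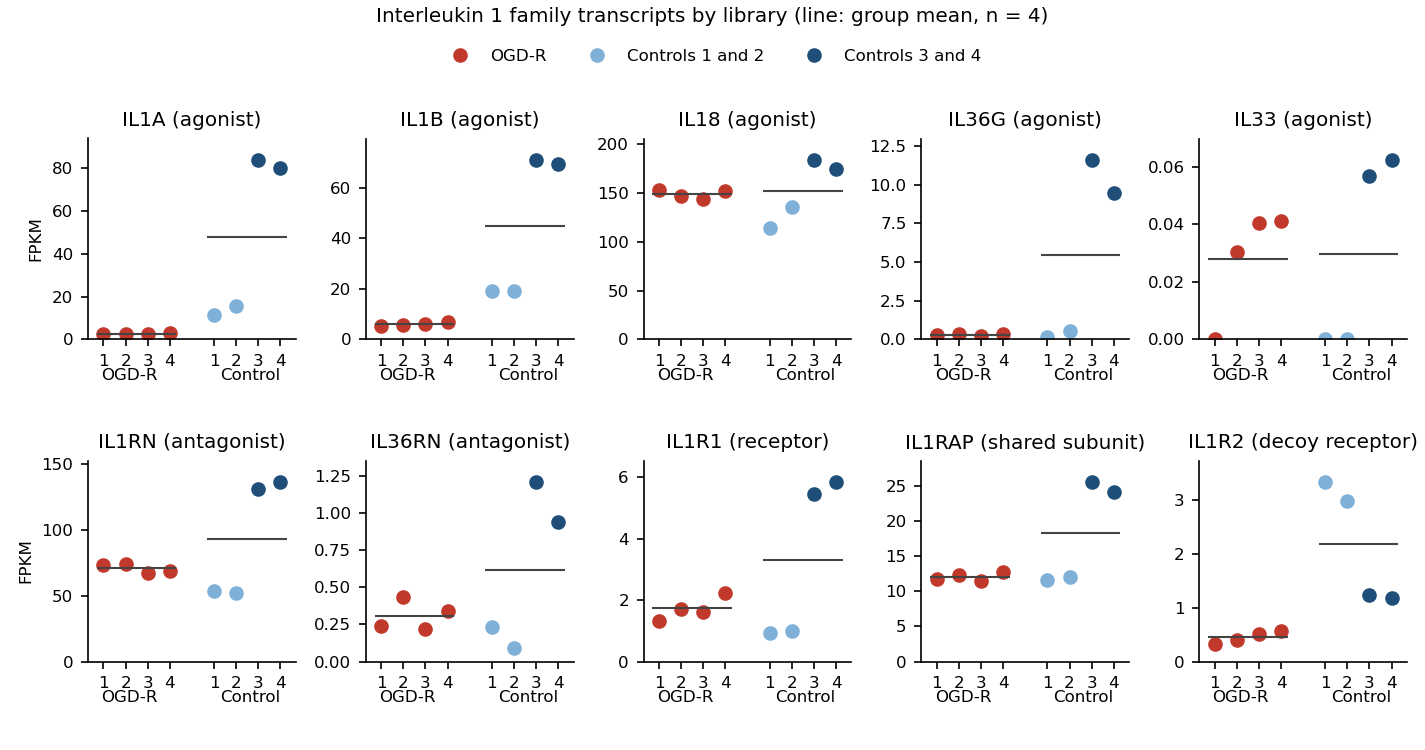
FPKM of each of the 10 family genes in every library, 1 point a library, with OGD-R left of Control and a line at each group mean (n = 4); each linear axis starts at 0 and has its own scale. IL1A, IL1B and IL1R2 are the genes whose 4 OGD-R points all lie below the 4 Control points, and in IL1R2 alone Controls 1 and 2 are the high pair.

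IL18 encodes interleukin 18, a ligand that keratinocytes store as an inactive precursor. It was the most abundant member in every library. The gene (ENSG00000150782) lies on chromosome 11 at 112143251 to 112164117, minus strand. Its level was 152.5, 147, 143 and 152 FPKM in OGD-R libraries 1 to 4, against 114, 135, 184 and 174 FPKM in Controls 1 to 4. All OGD-R libraries lay between the lower and the higher pair of Controls. The means were 149 ± 4.22 FPKM in OGD-R and 152 ± 32.6 FPKM in Control (SD, n = 4 each), and the difference stayed short of the threshold (limma adjusted p = 0.985). The log2 fold change was 0.26 against Controls 1 and 2 (limma adjusted p = 0.0149) and -0.27 against Controls 3 and 4 (limma adjusted p = 0.0042), so the direction turned with the Controls used.

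IL36G encodes interleukin 36 gamma, a ligand of inflamed epidermis. The gene (ENSG00000136688) lies on chromosome 2 at 112973203 to 112985665, plus strand. It had 0.262, 0.358, 0.243 and 0.325 FPKM in OGD-R libraries 1 to 4, against 0.149, 0.560, 11.6 and 9.44 FPKM in Controls 1 to 4. Controls 3 and 4 held nearly all of its signal, and the OGD-R values lay between those of Controls 1 and 2. The log2 fold change against all Controls was -1.60 (SE 0.776, limma adjusted p = 0.188). It was -0.05 against Controls 1 and 2 (limma adjusted p = 0.792) and -3.14 against Controls 3 and 4 (limma adjusted p = 1.69e-08). Thus the lower level in OGD-R was a difference from Controls 3 and 4 that was not detectable against Controls 1 and 2.

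IL33 encodes a nuclear alarm ligand (ENSG00000137033, chromosome 9 at 6215786 to 6257983, plus strand) and was close to 0 throughout. It was listed at 0 in OGD-R 1 and at 0.0305, 0.0404 and 0.0412 FPKM in OGD-R 2 to 4, against 0 in Controls 1 and 2 and 0.0567 and 0.0624 FPKM in Controls 3 and 4. No library held more than an estimated 4.02 fragments, and the gene was under the filter. With no filter on low values it did not pass (limma adjusted p = 0.968), and no difference was detectable at this depth.

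IL1RN encodes the interleukin 1 receptor antagonist and was the next most abundant member after IL18 in each library. The gene (ENSG00000136689) lies at 113107214 to 113134016 on the plus strand of chromosome 2. Its level was 73.1, 74.0, 67.6 and 68.4 FPKM in OGD-R libraries 1 to 4, against 53.8, 52.0, 131 and 136 FPKM in Controls 1 to 4. OGD-R lay wholly above Controls 1 and 2 and wholly below Controls 3 and 4. The means were 70.8 ± 3.25 FPKM in OGD-R and 93.2 ± 46.6 FPKM in Control (SD, n = 4 each), with a log2 fold change of -0.25 that did not pass (SE 0.335, limma adjusted p = 0.638). Against Controls 1 and 2 the log2 fold change was 0.41 (limma adjusted p = 0.000474), and against Controls 3 and 4 it was -0.91 (limma adjusted p = 2.3e-06). Both of these comparisons passed, in opposite directions.

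IL36RN encodes the interleukin 36 receptor antagonist (ENSG00000136695, chromosome 2 at 113058638 to 113065382, plus strand). Its mean was under 1 FPKM, so it was not tested with the rest. The level was 0.240, 0.438, 0.216 and 0.343 FPKM in OGD-R libraries 1 to 4, against 0.233, 0.0939, 1.21 and 0.940 FPKM in Controls 1 to 4. As for IL36G, Controls 3 and 4 were the high libraries and OGD-R overlapped the other pair. With no filter on low values, IL36RN did not pass either (limma adjusted p = 0.524).

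IL1R2 encodes the decoy receptor and behaved unlike the tested ligands, because Controls 1 and 2 were its highest libraries. The gene (ENSG00000115590) lies on chromosome 2 at 101991844 to 102028544, plus strand. Its level was 0.332, 0.393, 0.509 and 0.560 FPKM in OGD-R libraries 1 to 4, against 3.33, 2.99, 1.24 and 1.17 FPKM in Controls 1 to 4. Every OGD-R library lay below every Control. The means were 0.449 ± 0.104 FPKM in OGD-R and 2.18 ± 1.14 FPKM in Control (SD, n = 4 each), 4.86-fold lower in OGD-R. IL1R2 fell by 1.07 on the log2(FPKM + 1) scale, which understates a low gene (SE 0.245, limma adjusted p = 0.0191); with a pseudocount of 0.1 it fell by 1.93. The log2 fold change was -1.52 against Controls 1 and 2 (limma adjusted p = 5.43e-06) and -0.61 against Controls 3 and 4 (limma adjusted p = 0.000941). The call against all Controls was near the threshold: it was lost without OGD-R 1, 2 or 3 (limma adjusted p = 0.0594, 0.0582 and 0.0539). With the replicate number as a block the limma adjusted p was 0.0618, and IL1A and IL1B were then the members called lower, beside 4.32% of all genes.

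In a two-sided exact permutation test IL1A, IL1B and IL1R2 each gave p = 0.0286, the smallest that the 70 divisions of 8 libraries into 4 and 4 allow. Groups that do not overlap can give no other value, so it adds nothing to that observation.

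IL1R1 encodes the signalling receptor for interleukin 1. The gene (ENSG00000115594) lies on chromosome 2 at 102064544 to 102179874, plus strand. Its level was 1.33, 1.72, 1.62 and 2.23 FPKM in OGD-R libraries 1 to 4, against 0.917, 0.996, 5.45 and 5.84 FPKM in Controls 1 to 4. As in IL1RN, all OGD-R values fell between the pairs of Controls. Against all Controls the log2 fold change was -0.41 (SE 0.451, limma adjusted p = 0.555). It was 0.47 against Controls 1 and 2 (limma adjusted p = 0.0134) and -1.29 against Controls 3 and 4 (limma adjusted p = 1.61e-05). The signalling receptor was thus higher in OGD-R than in the Controls where the decoy receptor was highest.

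IL1RAP encodes the accessory protein that the interleukin 1, 33 and 36 receptors share. The gene (ENSG00000196083) lies on chromosome 3 at 190514051 to 190659750, plus strand. Its level was 11.8, 12.3, 11.5 and 12.7 FPKM in OGD-R libraries 1 to 4, against 11.6, 12, 25.5 and 24.1 FPKM in Controls 1 to 4. OGD-R overlapped Controls 1 and 2 and lay well below Controls 3 and 4. The log2 fold change was -0.48 against all Controls (SE 0.261, limma adjusted p = 0.235). It was 0.03 against Controls 1 and 2 (SE 0.0694, limma adjusted p = 0.755) and -0.98 against Controls 3 and 4 (limma adjusted p = 1.87e-06).

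The order of levels shifted with these differences. In the OGD-R libraries IL18, IL1RN, IL1RAP, IL1B, IL1A and IL1R1 followed each other from high to low with no overlap between neighbours. Below them IL1R2, IL36RN and IL36G overlapped, and IL33 came last. In Controls 1 and 2, IL1B and IL1A came next after IL1RN, with IL1A overlapping IL1RAP, and IL1R2 stood above IL1R1. In Controls 3 and 4, IL1A came next after IL1RN and above IL1B, and IL36G stood above both IL1R1 and IL1R2. IL18 made up 60.1% to 61.7% of the summed FPKM of the 10 genes in OGD-R, against 53.1% to 56.6% in Controls 1 and 2 and 34.7% to 35.7% in Controls 3 and 4. The share of IL1A was 0.99% to 1.15% in OGD-R, 5.39% to 6.6% in Controls 1 and 2 and 16.0% to 16.3% in Controls 3 and 4.

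Ratios within a library set each brake beside the ligand or receptor it acts on; they compare RNA levels and not protein. IL1RN over the sum of IL1A and IL1B was 9.35, 8.88, 7.82 and 7.03 in OGD-R libraries 1 to 4, against 1.74, 1.49, 0.844 and 0.91 in Controls 1 to 4. The antagonist's RNA exceeded that of the ligands in all OGD-R libraries by more than in any Control. IL1R2 over IL1R1 was 0.25, 0.228, 0.313 and 0.251 in OGD-R, against 3.63, 3.0, 0.228 and 0.201 in Control. The decoy exceeded the signalling receptor in Controls 1 and 2 only, and on this ratio OGD-R lay near Controls 3 and 4. IL36RN over IL36G was 0.916, 1.22, 0.893 and 1.06 in OGD-R, against 1.56, 0.168, 0.105 and 0.0996 in Control, both genes being under 1 FPKM outside Controls 3 and 4. IL1A over IL1B was 0.456, 0.46, 0.399 and 0.408 in OGD-R, against 0.602, 0.822, 1.18 and 1.16 in Control. Thus IL1A was the lower of the pair in OGD-R and in Controls 1 and 2, and the higher in Controls 3 and 4.

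**Figure D3:**
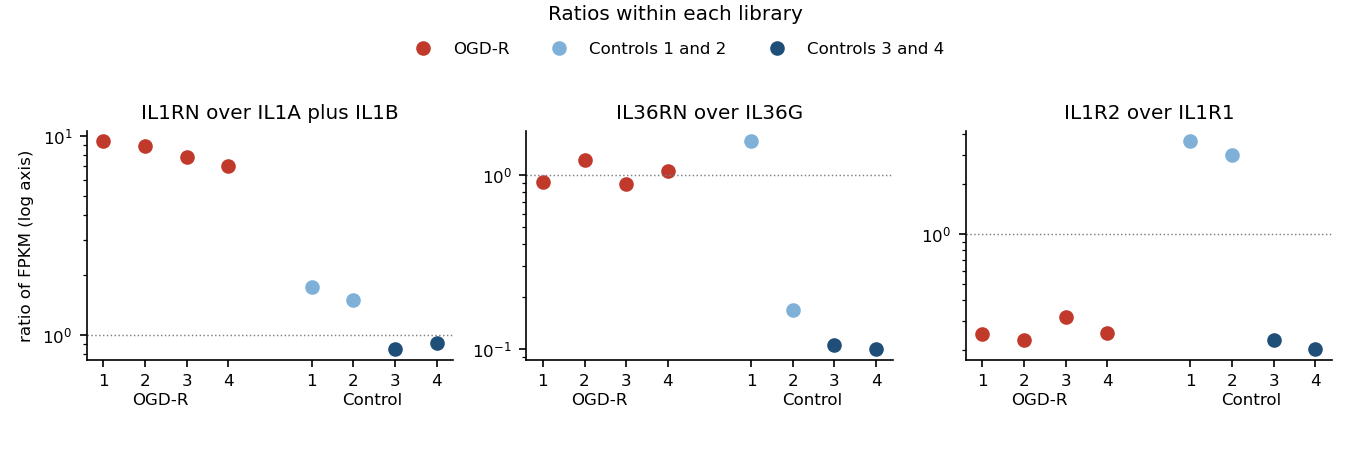
Ratios of FPKM within each library on logarithmic axes, 1 point a library: IL1RN over the sum of IL1A and IL1B, IL36RN over IL36G, and IL1R2 over IL1R1; the dotted line marks 1. The first ratio is between 7.03 and 9.35 in OGD-R and between 0.844 and 1.74 in Control, whereas IL1R2 over IL1R1 is above 1 in Controls 1 and 2 only.

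Of the 10 genes, 7 lie in a pair of clusters on chromosome 2. The ligand cluster spans 360 kb at 112773915 to 113134016 and holds IL1A, IL1B, IL37, IL36G, IL36A, IL36B, IL36RN, IL1F10 and IL1RN in this order. Against Controls 1 and 2 the levels did not move as a block: IL1A and IL1B at one end were lower in OGD-R, and IL1RN at the other was higher. Against Controls 3 and 4 the tested genes of the cluster were all lower, though IL36G was tested only because of its level in those Controls. The log2 fold changes there were -4.53 for IL1A, -3.34 for IL1B, -3.14 for IL36G and -0.91 for IL1RN. The nearest protein-coding neighbours outside it were CKAP2L, which encodes a protein of the mitotic spindle, and PSD4. CKAP2L had 12.2, 12.5, 11.6 and 12 FPKM in OGD-R, against 12.5, 13.6, 1.64 and 1.62 FPKM in Control, low where IL1A was highest (log2 fold change 1.10, limma adjusted p = 0.235). PSD4 did not pass (log2 fold change -0.27, limma adjusted p = 0.0593).

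The receptor cluster spans 461 kb at 101991844 to 102452565 and holds IL1R2, IL1R1, IL1RL2, IL1RL1, IL18R1 and IL18RAP. Its neighbour on the IL1R2 side, MAP4K4, encodes a kinase of stress signalling and had 15.1, 13.5, 12.6 and 13.3 FPKM in OGD-R, against 27.6, 29.2, 43.0 and 39.5 FPKM in Control. MAP4K4 fell by 1.27 (log2, SE 0.154, limma adjusted p = 0.00124), with every OGD-R library below every Control. It was also called lower against either pair of Controls. On the other side SLC9A4 reached at most 0.167 FPKM and was not tested.

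Beside the members, 8 further receptors and regulators of the family were listed, of which 4 were tested and 0 passed against all Controls (limma). IL1RL1 and IL1RL2, the 2 with an unadjusted p under 0.05 (0.0186 and 0.0288), reached the filter only through Control. With no filter on low values 2 were called lower, IL18R1 (limma adjusted p = 0.0252) and IL1RAPL2 (limma adjusted p = 0.0438), and IL1RL1 was called lower with a pseudocount of 0.1 (limma adjusted p = 0.0307) and with library weights (limma adjusted p = 0.0227). IL1RL1, the receptor of interleukin 33, had 0.147, 0.286, 0.0819 and 0.268 FPKM in OGD-R libraries 1 to 4, against 1.76, 1.55, 108 and 65.3 FPKM in Controls 1 to 4. All OGD-R values lay below all Controls, with Controls 3 and 4 above the rest by far. The log2 fold change was -3.65 against all Controls (SE 1.25, limma adjusted p = 0.0754; 0.0368 without Control 1 and 0.033 without Control 2), -1.15 against Controls 1 and 2 (limma adjusted p = 4.25e-05) and -6.15 against Controls 3 and 4. IL1RL1 overlaps IL18R1 in the annotation, and how reads were divided between them is not given. IL1RL2, the interleukin 36 receptor, did not pass (log2 fold change -0.30, limma adjusted p = 0.1).

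The 4 other ligands of the family were all under the filter. IL37, an anti-inflammatory ligand, had 0.473, 0.136, 0.228 and 0.221 FPKM in OGD-R, against 0.787, 1.58, 0.582 and 0.546 FPKM in Control. OGD-R lay wholly below Control, and with no filter on low values IL37 did not pass (log2 fold change -0.54, limma adjusted p = 0.0808). IL36B was listed at 0 in all OGD-R libraries and in Controls 1 and 2, and had 1.67 and 1.87 FPKM in Controls 3 and 4. IL36A was listed at 0 in all 8 libraries, and IL1F10 reached at most 0.17 FPKM.

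Of 18 genes listed for signalling from the receptor, 16 were tested; 1 was lower, 0 were higher, and the median log2 fold change was -0.26. The shares over all tested genes were 9.69% lower and 10.2% higher, so these counts do not set the list apart. The lower gene was IRAK1, a kinase that is recruited to the receptor complex through MYD88. IRAK1 had 48.8, 43.5, 37.2 and 41.7 FPKM in OGD-R, against 107, 103, 74.3 and 60.0 FPKM in Control, with no overlap. It fell by 0.96 (log2, SE 0.193, limma adjusted p = 0.0115). IRAK2, a related kinase, had 0.0432, 0.0629, 0.134 and 0.191 FPKM in OGD-R, against 0.442, 0.400, 6.01 and 6.15 FPKM in Control, and did not pass (it reached the filter only through Control, limma adjusted p = 0.104; 0.0481 without Control 1 and 0.044 without Control 2). Against Controls 1 and 2 the list had 4 genes higher and 6 lower, beside 22.8% and 32.4% of all genes. Against Controls 3 and 4 it had 3 higher and 9 lower, beside 39.2% and 28.4%.

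Of 22 genes listed for processing and release of the ligands, 16 were tested, with 1 higher, 2 lower and a median log2 fold change of 0.16, numbers near the 10.2% and 9.69% of all genes. CASP1 encodes caspase 1, the protease that matures interleukin 1 beta and interleukin 18. It had 10.3, 8.55, 10.5 and 11.2 FPKM in OGD-R, against 4.61, 4.57, 2.86 and 3.06 FPKM in Control. All OGD-R values were above all Control values, the opposite of IL1B. CASP1 rose by 1.24 (log2, SE 0.156, limma adjusted p = 0.00141), by 0.99 against Controls 1 and 2 and by 1.49 against Controls 3 and 4. DPP9, a peptidase that restrains the NLRP1 and CARD8 inflammasomes, had 25.0, 23.7, 21.7 and 23.3 FPKM in OGD-R, against 36.3, 36.1, 29.9 and 30.8 FPKM in Control, and fell by 0.48 (SE 0.0982, limma adjusted p = 0.0117). GSDME, a pore-forming gasdermin cut by caspase 3, had 19.9, 20.0, 20.6 and 25.2 FPKM in OGD-R, against 27.4, 30.8, 33.1 and 29.8 FPKM in Control, and fell by 0.48 (SE 0.106, limma adjusted p = 0.0162). In both genes the groups did not overlap, and both calls held against either pair of Controls. The call of GSDME was lost without OGD-R 1, 2 or 3 (limma adjusted p = 0.0554, 0.0596 and 0.0581), and also with the replicate number as a block (0.0646) and with library weights per group (0.0895). The list as a whole had 2 higher and 6 lower against Controls 1 and 2 (22.8% and 32.4% of all genes), and 8 higher and 5 lower against Controls 3 and 4 (39.2% and 28.4%).

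Of 28 genes listed as induced by interleukin 1 or 36 in keratinocytes, 25 were tested, with 0 higher, 2 lower and a median log2 fold change of -0.63, beside 10.2% higher and 9.69% lower over all genes. CXCL3, CCL20, IL6, CSF2, TNF, ICAM1 and MMP3, 7 of the 25, reached the filter only through Control, so the counts and medians of this list carry that choice and are given as a description. CSF2, which encodes the growth factor GM-CSF, was listed at 0 in OGD-R 1 and had 0.105, 0.112 and 0.594 FPKM in OGD-R 2 to 4, against 1.75, 3.94, 38.2 and 37.4 FPKM in Control. MMP1, a collagenase, had 1.0, 1.56, 0.883 and 1.47 FPKM in OGD-R, against 15.4, 12.6, 199 and 185 FPKM in Control. Both genes were lower in every OGD-R library than in every Control, and like IL1A they were highest in Controls 3 and 4. CSF2 fell by 3.34 (SE 0.866, limma adjusted p = 0.0298) and MMP1 fell by 4.6 (SE 0.922, limma adjusted p = 0.0112) on the log2 scale. The call of CSF2 was lost without Control 3 or Control 4 (limma adjusted p = 0.061 and 0.0564) and without any 1 OGD-R library (limma adjusted p = 0.0676 to 0.0811), and held without Control 1 or 2, when the list had 4 genes lower.

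The calls of this list depended on the Controls. Against Controls 1 and 2, 12 of its genes were higher and 4 lower, with a median of 0.21, beside 22.8% higher and 32.4% lower over all genes. The higher genes were PTGS2, NFKBIA, NFKBIZ, BIRC3, ZC3H12A, LCN2, S100A7, S100A8, S100A9, SAA1, SAA2 and PI3; SAA1 and SAA2 are near-identical copies whose reads may be divided uncertainly. The lower genes were CSF2, TNFAIP3, MMP1 and MMP3. NFKBIA and TNFAIP3, which both encode feedback inhibitors of NF-kB, were thus called in opposite directions. Against Controls 3 and 4, 0 were higher and 24 lower, with a median of -2.10, beside 39.2% and 28.4% over all genes. CXCL8, a neutrophil-attracting chemokine, showed the difference between the Controls: it had 3.43, 2.87, 3.28 and 3.79 FPKM in OGD-R, against 3.69, 5.13, 180 and 151 FPKM in Control.

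**Figure D4:**
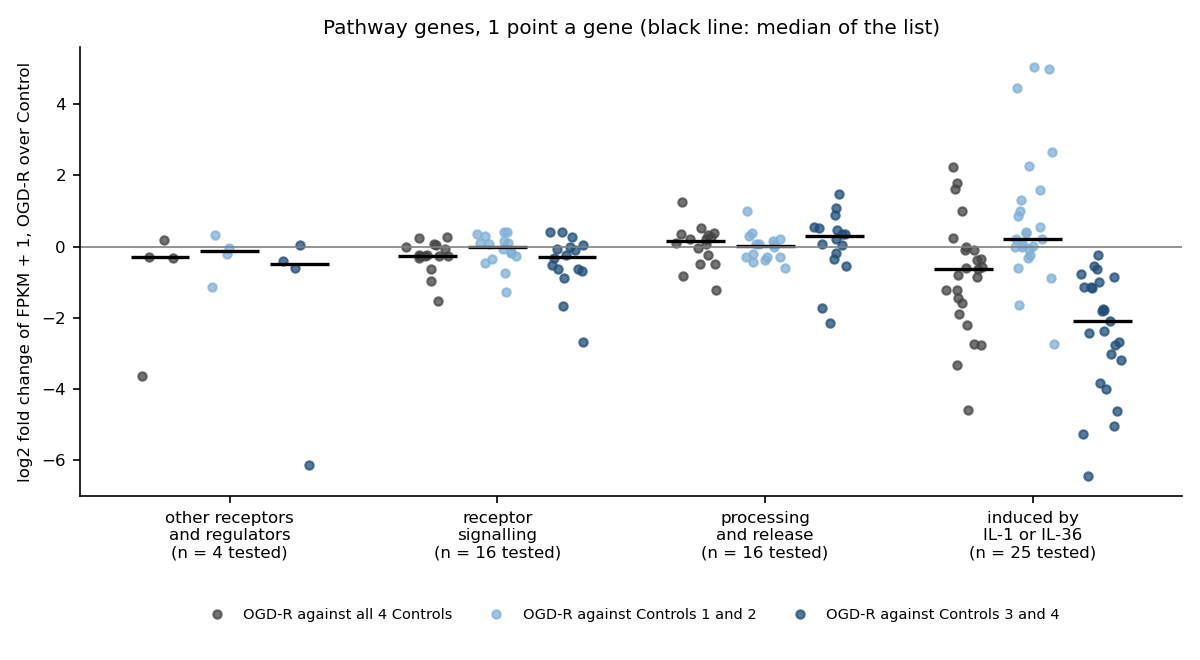
Log2 fold change of FPKM + 1, OGD-R over Control, for the tested genes of 4 pathway lists, 1 point a gene, against all 4 Controls, Controls 1 and 2 and Controls 3 and 4; black lines are medians. The genes induced by interleukin 1 or 36 have a median of -0.63, 0.21 and -2.10 in the 3 comparisons, and the other lists stay closer to 0.

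The tested genes whose levels were most alike across the 8 libraries were taken by Pearson's r of log2(FPKM + 1), as a description, since the points share their libraries and the split of the Controls. For IL1A they included INHBA (r = 0.9995) and ELL2 (0.999). INHBA, which encodes a subunit of activin, had 2.35, 2.83, 2.33 and 3.02 FPKM in OGD-R, against 10.4, 13.3, 58.9 and 59.9 FPKM in Control. For IL1B they were PMEPA1 (r = 0.999), PLIN2 (0.9986) and ZNF319 (0.9985). For IL1R2 they were CNN2 (r = 0.991), PROCR (0.9903) and VEGFC (0.9903), all highest in Controls 1 and 2. VEGFC, a growth factor of lymphatic vessels, had 2.08, 1.76, 1.81 and 2.25 FPKM in OGD-R, against 9.58, 9.28, 4.19 and 4.36 FPKM in Control. Among the members themselves r was 0.997 between IL1A and IL1B, 0.996 between IL36G and IL1RAP, 0.971 between IL1RN and IL1R1, and 0.499 between IL1A and IL1R2.

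Markers of keratinocytes and of other cells were read in the same libraries. All 14 keratinocyte markers were at or above 1 FPKM in every library, with summed levels of 17200 to 18300 FPKM in OGD-R and 13600 to 22600 FPKM in Control. The sums overlap, but 6 of these markers rose (KRT5, KRT14, DSG3, DSC3, PKP1 and KRT15) and 4 fell (KRT6A, SFN, ITGB4 and LAMB3) in OGD-R by the limma test. Over all tested genes 10.2% were called higher and 9.69% lower. KRT15, a basal keratin, averaged 636 FPKM in OGD-R and 84.5 FPKM in Control. Of 8 leukocyte markers, CD68 alone reached 1 FPKM: it had 3.63, 3.31, 3.74 and 2.94 FPKM in OGD-R, against 16.7, 15.5, 12.3 and 13.5 FPKM in Control, and so was lower where IL1A, IL1B and IL1R2 were lower. CD68 is a lysosomal protein that other cells also make. The leukocyte markers summed to 3.32 to 4.10 FPKM in OGD-R and 12.4 to 16.9 FPKM in Control, and most of each sum was CD68. CD14 went the other way, with 0.192 to 0.451 FPKM in OGD-R and 0.08 to 0.181 FPKM in Control. With no filter on low values CD14 did not pass (limma adjusted p = 0.113). PTPRC, CD3E, LYZ and CD79A overlapped between the groups, and TYROBP and AIF1 were at 0 in all libraries. Of 7 fibroblast markers COL1A1 alone reached 1 FPKM and COL1A2 was at 0. The sums, mostly COL1A1, were 3.82 to 4.99 FPKM in OGD-R and 0.882 to 8.72 FPKM in Control. DCN had 0.105 to 0.54 FPKM in OGD-R and 0 to 0.0327 FPKM in Control. LUM had 0.143 to 0.225 FPKM in OGD-R and 0 to 0.0581 FPKM in Control. These markers thus lay wholly above Control, and the other fibroblast markers did not. With no filter on low values LUM was called higher (limma adjusted p = 0.00332) and DCN was not (limma adjusted p = 0.0809). None of 5 endothelial and 5 melanocyte markers reached 1 FPKM. The endothelial sums were 0.296 to 0.482 FPKM in OGD-R and 0.0645 to 0.199 FPKM in Control, and the melanocyte sums 0.543 to 0.699 FPKM in OGD-R and 0.157 to 0.451 FPKM in Control. VWF and PMEL lay wholly above Control, and the other endothelial and melanocyte markers did not. With no filter on low values both were called higher (limma adjusted p = 0.00304 and 0.0292). The part of cells other than keratinocytes in the results for the family was not tested.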

How the data were processed

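For each library the authors deposited a table of IDs, symbols and 1 value a gene, from total RNA of HaCaT cells sequenced on an Illumina instrument, per the labels' protocols, which name kits of NEBNext and SMARTer type. The aligner, counting tool and genome build are not given in the sources used. The deposited values were read as FPKM: low values of 944 single-exon genes came in steps inverse to gene length, with 17 to 30 of 124 to 163 low values per library within 0.5% of the best step, so unit and fragment numbers are estimates.

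Coordinates are from GENCODE 29, matched by Ensembl ID, and promoters from RefSeq. The 11740 genes that averaged 1 FPKM or more across the 8 libraries were tested as log2(FPKM + 1) with limma 3.58.1 in R 4.3.3, with an intensity trend and Benjamini-Hochberg adjustment. The step was tested on simulated data in which both groups had the spread of the OGD-R libraries. These data lacked the split of the Controls, so they do not show how the test behaves with it.

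The members and gene lists were chosen with earlier results of these data known. Named genes were all members, the called genes of each list, the 3 most alike genes of each called member (1 is not reported here) and the cluster neighbours; IL1RL1, IL1RL2, IL18R1, IL1RAPL2, IRAK2, CXCL8, markers, genes reaching the filter only through Control, the other ligands and the induced genes called against Controls 1 and 2 were added after their values were seen.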

Additional observations from a re-analysis of the deposited data

How the results depend on the processing

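The calls of IL1A and IL1B kept their direction and their side of the threshold under each of the 18 other settings, and that of IL1R2 under all but the replicate block and 3 left-out libraries. These settings include the descriptive fits against each pair of Controls. As the groups do not overlap in these genes, leaving out libraries could not turn the direction. The counts of called members moved by more than 1.5 times only with the choice of Controls. Without Controls 3 and 4, 3 members were called higher, and the log2 fold change turned positive for IL1RN (0.41), IL18 (0.26), IL1R1 (0.47) and IL1RAP (0.03) and negative for CKAP2L (-0.11). Without Controls 1 and 2, 8 members were called lower, among them IL36G and IL1R2, which reached the filter only through Control. IL18, near 0 in the full comparison, was 0.07 with scaling without mitochondrial genes and ran from -0.13 to 0.09 with 1 library left out.

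Of 61 tested genes of the pathway lists, 1 was higher and 5 lower. The number higher was 2 with no filter on low values, with a mean of at least 0.1 FPKM and with median-ratio scaling, 3 with scaling without mitochondrial genes, 18 without Controls 3 and 4, 11 without Controls 1 and 2, and 1 to 2 with 1 library left out. The number lower was 8 with a pseudocount of 0.1 and with library weights, 17 without Controls 3 and 4, 41 without Controls 1 and 2, and 3 to 10 with 1 library left out. Over all genes, leaving out 1 library gave 711 to 1426 higher and 561 to 1312 lower. Leaving out Controls 3 and 4 gave 2673 higher and 3807 lower, and leaving out Controls 1 and 2 gave 4603 higher and 3337 lower.

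The replicate block gave 625 genes higher and 507 lower, and 2 members lower. The replicate numbers showed no clear pairing: deviations from the group mean correlated by 0.045 to 0.0646 between same-numbered libraries. OGD-R 1 to 4 correlated best with Controls 2, 1, 4 and 4. The gap between the pairs of Controls enters these deviations, so they cannot settle whether the libraries were paired. With 4 libraries a group the exact test cannot go below 0.0286, and genes near 0, such as IL33, are limited by depth. The cause of these shifts was not tested.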
